A study of Homo sapiens with 4 samples.

Results

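Proteasome subunit genes were taken as the protein-coding genes whose symbol starts with PSMA, PSMB, PSMC, PSMD, PSME, PSMF or PSMG and goes on with a number, matched by Ensembl identifier. There were 48 such genes among the 19629 protein-coding genes of the count files, and all 48 had an entry in both files. Their symbols, and no measured value, chose them. They were described in total RNA from the extracellular vesicles (EVs) of PC3, a human line of prostate cancer established from a metastasis in bone, for which 2 biological replicates of a single condition were sequenced. The titles of both total RNA samples name the same preparation while their descriptions name different ones, so SDs and differences between the replicates may be technical. The vesicles were collected from medium of otherwise untreated PC3 cells, isolated with the exoEasy Maxi kit and size-exclusion columns and made into stranded libraries. Small RNA libraries of the same kind of vesicles are not used here. No control vesicles or cellular RNA of PC3 are part of the comparison, so levels describe the vesicle RNA only. In such bulk RNA, fewer vesicles carrying a transcript and fewer copies per vesicle cannot be told apart.

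The proteasome degrades proteins tagged with ubiquitin. Its barrel-shaped 20S core particle is built of alpha rings, which gate the entrance, around beta rings, which hold the proteolytic sites. The 19S regulatory particle binds the ubiquitin chain, removes it and unfolds the substrate with a ring of ATPases, while alternative activators, an inhibitor and dedicated assembly chaperones act on the core particle. Cells under proteotoxic stress raise most subunit genes together through the transcription factor NRF1, encoded by NFE2L1, which binds antioxidant response elements in their promoters.

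Depth set what could be seen. The files held 489170 reads counted on genes in replicate 1 and 475942 in replicate 2, which were 2.50% and 2.16% of all reads in them. A single read therefore equalled 2.04 and 2.10 CPM (reads scaled to a total of 1000000 reads counted on genes), and a gene with no read could still have had a level of up to 3 reads, or 6.13 and 6.30 CPM. Counting error is all that such floors and the 95% intervals of shares cover. Even counts were in excess: of the protein-coding genes with 2 to 21 reads, 78.4% had an even number in replicate 1 and 75.6% in replicate 2, and 17 of the 26 subunit genes with a read in replicate 1 and 19 of the 28 in replicate 2 had an even number. Counts were thus not numbers of independent molecules, so the intervals are too narrow and the floors too low. All 6 markers of PC3-type epithelial cancer cells (KRT8, KRT18, KRT19, EPCAM, VIM and CD44) had reads in both replicates, 1300 and 1410 in sum. The luminal prostate markers KLK3 and TMPRSS2 had none, and neither did any of the 7 markers of blood, serum, liver and platelets.

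Of the 48 proteasome subunit genes, 19 (39.6%) were identified, which here means at least 1 read in both replicates. The share over all protein-coding genes was 21.9%. A read in either replicate was present for 35 (72.9%), against 42.3% of all protein-coding genes, and at least 10 reads in both replicates for 10 (20.8%), against 11.6%. Of the 35, 7 had reads in replicate 1 only and 9 in replicate 2 only. The remaining 13 had no read in either library. Among the top 10.0% of protein-coding genes by mean CPM (1963 genes with at least 42.8 CPM) were 7 subunit genes, PSMD3, PSMG2, PSME2, PSMD2, PSME4, PSMB4 and PSMC1, or 14.6% of the family. These counts describe the family and no test was run on them.

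The family as a whole took 717 reads in replicate 1 and 577 in replicate 2. That was 0.245% (95% Wilson interval 0.227 to 0.263%) and 0.209% (0.193 to 0.227%) of the reads on protein-coding genes, a mean of 0.227% ± 0.0253 (SD, n = 2), while the family makes up 0.245% of protein-coding genes by number. Which of these shares is larger depends on the reads they are set against: without mitochondrial genes and RPS29 the family took a mean of 0.361% of the reads on protein-coding genes. The median of log2(CPM + 1), averaged over the replicates, was 2.40 over all 48 and 0 over all protein-coding genes. Among genes with a read in both replicates, it was 4.44 for the 19 subunit genes and 5.05 for protein-coding genes. Reads were concentrated: the 6 subunit genes with the most reads held 825 of the 1294, or 63.8%.

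**Figure D1:**
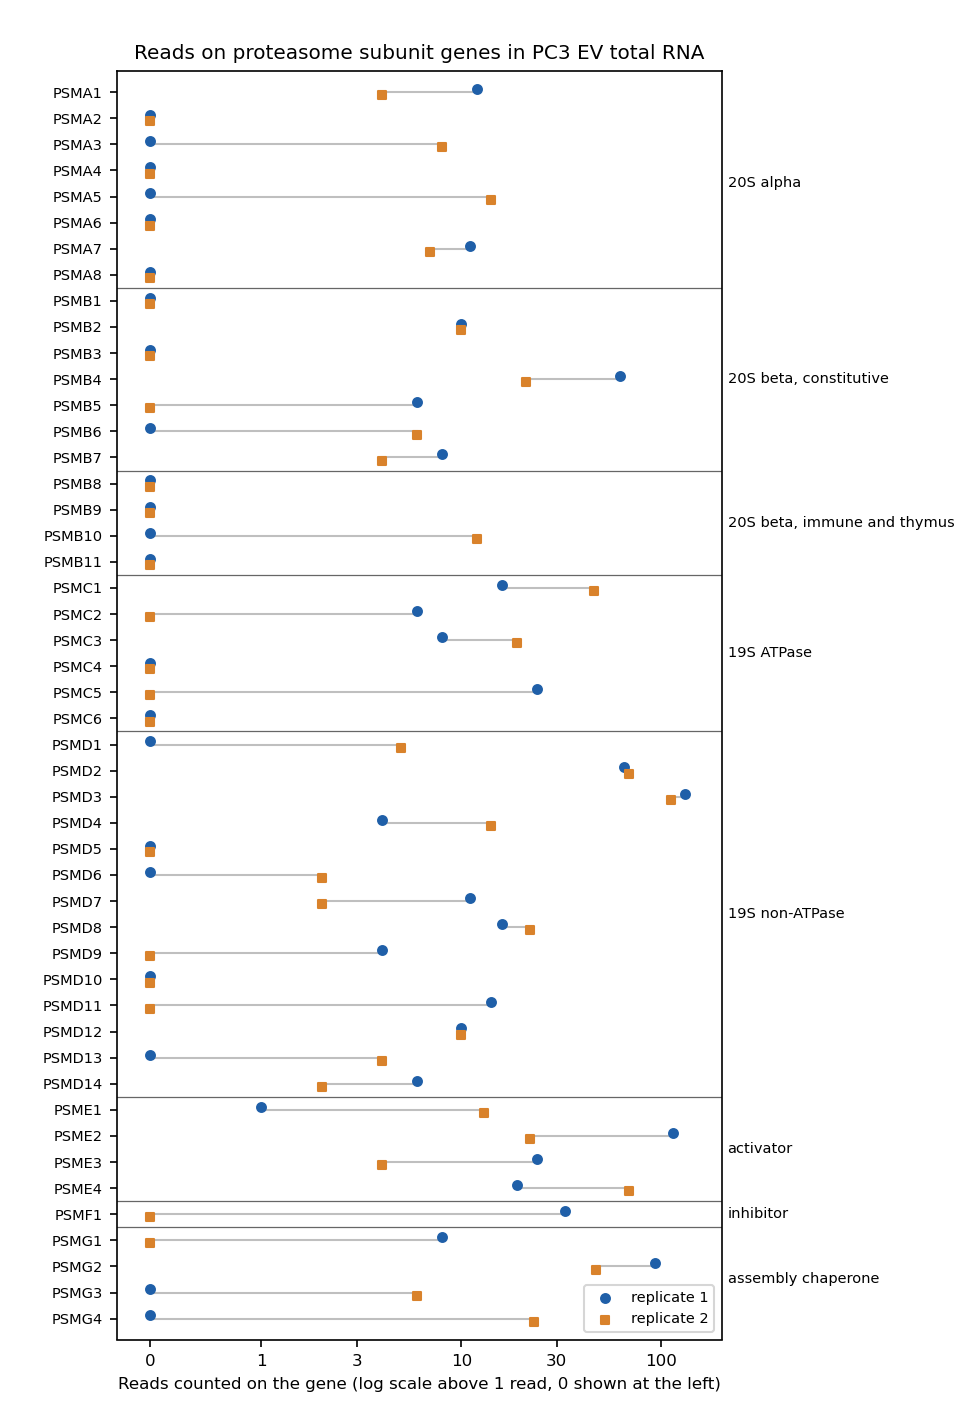
Reads counted on each of the 48 proteasome subunit genes (rows, ordered by class) in PC3 EV total RNA, on a log axis above 1 read with 0 drawn at the left. Circles are replicate 1 and squares replicate 2, joined by a grey line; PSMD3 has the most reads in each replicate, and 13 genes lie at 0 in both.

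Of the 19 genes of the 20S core particle 5 were identified (26.3%, against 21.9% of all protein-coding genes). The 19 held 15.2% (95% Wilson interval 12.8 to 18.02%) of the family's reads in replicate 1 and 14.9% (12.2 to 18.04%) in the other, a mean of 15.1% ± 0.210 (SD, n = 2). Among the 8 alpha genes only PSMA1 (12 reads in replicate 1 and 4 in replicate 2) and PSMA7 (11 and 7) were identified. PSMA3 and PSMA5 had reads in replicate 2 only, 8 and 14. PSMA2, PSMA4, PSMA6 and PSMA8 had none, and PSMA8 is the testis paralog of PSMA7. Alpha genes summed to 23 and 33 reads.

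Of the 7 constitutive beta genes, PSMB4, PSMB2 and PSMB7 were identified. PSMB4, a structural beta subunit without a proteolytic site (chromosome 1, 151399560 to 151401937, plus strand), drew 62 reads from replicate 1 and 21 from replicate 2, 85.4 ± 58.4 CPM (SD, n = 2). It accounted for 83 of the 127 reads of the constitutive beta genes. PSMB2, also without a proteolytic site, had 10 reads in each replicate. The 3 proteolytic subunits were at the limit of depth: PSMB7, with trypsin-like activity, had 8 and 4 reads. PSMB5, which carries the chymotrypsin-like site blocked by bortezomib, had 6 reads in replicate 1 and 0 in replicate 2. PSMB6, with caspase-like activity, had 0 and 6. The order of these 3 cannot be told apart at this depth. PSMB1 and PSMB3 had no read.

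Cells exposed to interferon swap the proteolytic subunits for PSMB8, PSMB9 and PSMB10, which form the immunoproteasome, and the thymic cortex uses PSMB11. PSMB8 and PSMB9, neighbours within the class II region of the major histocompatibility complex on chromosome 6 (32840717 to 32844679, minus strand, and 32844136 to 32859851, plus strand), had no read in either replicate. PSMB10 had 0 reads in replicate 1 and 12 in replicate 2. PSMB11 had none. None of these 4 was therefore identified, and a level of up to 6.13 and 6.30 CPM per library is allowed for the 3 without reads. Constitutive and immune forms differed by few reads: PSMB5, PSMB6 and PSMB7 had 14 reads in replicate 1 and 10 in replicate 2, and PSMB8, PSMB9 and PSMB10 had 0 and 12.

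Of the 20 genes of the 19S regulatory particle 9 were identified (45%, against 21.9% of all protein-coding genes). These are all PSMC and PSMD genes, so they include the assembly genes PSMD5, PSMD9 and PSMD10. The 19S subunits ADRM1 and SEM1 fall outside the symbol rule and are left out. The 20 took 43.9% (95% Wilson interval 40.3 to 47.6%) of the family's reads in replicate 1 and 53.2% (49.1 to 57.2%) in the other, a mean of 48.6% ± 6.56 (SD, n = 2). Most of this came from 2 of the 14 non-ATPase genes. PSMD3, a scaffold subunit of the lid (chromosome 17, 39980807 to 39997959, plus strand), had 131 and 112 reads. At 252 ± 23.0 CPM (SD, n = 2) it ranked 184 of all protein-coding genes. Without PSMD3 the mean share of the 19S genes was 36.7% ± 7.45 (SD, n = 2). That of the activators, inhibitor and chaperones was then 44.8% ± 7.38 (SD, n = 2). The order of these groups turned in replicate 1 (31.4% against 50%) but not in replicate 2 (41.9% against 39.6%). The order of the means and that in replicate 1 thus rest on PSMD3. PSMD2 (chromosome 3, 184299198 to 184309050, plus strand), a large base subunit that docks ubiquitin shuttle factors, had 65 and 69 reads, 139 ± 8.55 CPM (SD, n = 2). For both genes the replicates differed by less than counting error.

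Other non-ATPase genes had fewer reads. PSMD8, a lid subunit, had 16 and 22 reads, 39.5 ± 9.56 CPM (SD, n = 2), and PSMD12, also of the lid, had 10 in each replicate. The ubiquitin receptor PSMD4 had 4 and 14. PSMD14, the deubiquitinase that cuts the chain from the substrate, had 6 and 2, and its partner PSMD7 had 11 and 2. PSMD11, a lid subunit at the contact with the core particle, had 14 reads in replicate 1 and 0 in replicate 2. The large base subunit PSMD1 and the lid subunits PSMD6 and PSMD13 had between 2 and 5 reads, all in replicate 2, and PSMD9, an assembly chaperone of the base, had 4, all in replicate 1. PSMD5 and PSMD10, which help to assemble the base and are not part of the finished particle, had none.

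Of the 6 ATPase genes, PSMC1 and PSMC3 were identified. PSMC1 (chromosome 14, 90256527 to 90275429, plus strand) drew 16 reads from replicate 1 and 46 from replicate 2, 64.7 ± 45.2 CPM (SD, n = 2). Most of the coding sequence of PSMC1 has an identical copy elsewhere in the genome, and most of its exon bases lie opposite NRDE2. PSMC3 had 8 and 19, and PSMC5 had 24 and 0. PSMC2 had 6 and 0, while PSMC4 and PSMC6 had no read. The ATPases form a single ring together, and their reads, not corrected for length, were spread unevenly over them in both libraries.

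All 4 activator genes were identified, against 21.9% of all protein-coding genes, and this class alone had reads for every gene in both replicates. PSME1 was identified through 1 read in replicate 1, and all 4 have some exon bases opposite another gene. PSME2 (chromosome 14, 24143362 to 24147570, minus strand), which with PSME1 forms the interferon-induced PA28 cap, had 115 reads in replicate 1 and 22 in replicate 2, 141 ± 134 CPM (SD, n = 2). Its partner PSME1, a few kilobases away, had 1 and 13. PSME1 and PSME2 thus went opposite ways between the libraries. PSME3, which forms the nuclear cap, had 24 and 4 reads. PSME4 (chromosome 2, 53864069 to 53970993, minus strand), encoding the large nuclear activator PA200, had 19 and 69, 91.9 ± 75.05 CPM (SD, n = 2). The SD of PSME2 was close to its mean, and its high mean rests mostly on replicate 1. In replicate 2 its 22 reads equalled those of PSMD8 and lay below those of PSMD3, PSMD2, PSME4, PSMG2, PSMC1 and PSMG4.

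The inhibitor PSMF1, known as PI31 (chromosome 20, 1113240 to 1189415, plus strand), drew 33 reads from replicate 1 and none from replicate 2. Of the 4 chaperones that assemble the alpha ring, PSMG2 (chromosome 18, 12658043 to 12728945, plus strand) had 93 and 47 reads, 144 ± 64.6 CPM (SD, n = 2). Its partner PSMG1 had 8 and 0. PSMG3 had 0 and 6 and PSMG4 0 and 23, and these form the second chaperone pair. Within each pair the members therefore differed in the library that carried their reads or in their number. Activators, inhibitor and chaperones together held 40.9% (95% Wilson interval 37.3 to 44.5%) of the family's reads in replicate 1 and 31.9% (28.2 to 35.8%) in replicate 2, although they are 9 of the 48 genes. These shares are not corrected for length. All of these genes except PSMG1 have some exon bases opposite another gene, with or without reads of its own.

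Long genes collect more reads, so levels were also set per kilobase of exon. On this scale PSMD3 was highest with a mean of 50.8 CPM per kilobase. It was followed by PSMB4 with 40.2, PSME2 with 39.3, PSMD2 with 28.01 and PSMC3 with 12.4. The difference between PSMB4 and PSME2 was small against the spread of both. The order depends on the length used: per kilobase of the canonical transcript, an alternative chosen after seeing the data, PSME2 was highest with 177 CPM, followed by PSMG2 with 135 and PSMD3 with 117. The exons of all transcripts of PSMG2 cover 12490 bases and its canonical transcript 1070. Identified and other genes had similar lengths. The median exon length was 4313 bases for the 19 identified and 4279 for the other 29, and the length of the canonical transcript 1540 and 1470 bases. Across the 48 genes the Spearman correlation of mean CPM was 0.177 with exon length and 0.0964 with canonical length.

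Replicates differed beyond counting error for 16 of the 24 subunit genes with at least 10 reads summed (66.7%). This means that the 95% Clopper-Pearson interval of the share of a gene's reads from replicate 1 left out 50.7%, the share that the library totals give. The same held for 66.0% of the 5764 protein-coding genes with as many reads, so the share in the family was close to that of genes in general. Of the 16, 8 were higher in replicate 1 and 8 in replicate 2. The call compares these libraries and no conditions.

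The largest splits among genes with at least 10 reads were complete. PSMF1 (33 reads), PSMC5 (24) and PSMD11 (14) had reads in replicate 1 only, with lower interval bounds of 89.4%, 85.8% and 76.8%. PSMG4 (23), PSMA5 (14) and PSMB10 (12) had reads in replicate 2 only, with upper bounds of 14.8%, 23.2% and 26.5%. By contrast, PSMD3 drew 53.9% (47.4 to 60.3%) and PSMD2 48.5% (39.8 to 57.3%) of its reads from replicate 1. PSME2 drew 83.9% (76.7 to 89.7%) from it and PSME4 21.6% (13.5 to 31.6%). Since many counts were even, the intervals were also computed on counts divided by 2 and rounded up, an alternative chosen after seeing the data. Then 12 of the 24 differed, against 46.3% of the protein-coding genes. The Spearman correlation of the replicates was 0.475 across the 48 genes and 0.267 across the 35 with a read, against 0.286 across the 8296 protein-coding genes that had one. Genes are not independent replicates, and these values are a description of 2 libraries.

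**Figure D2:**
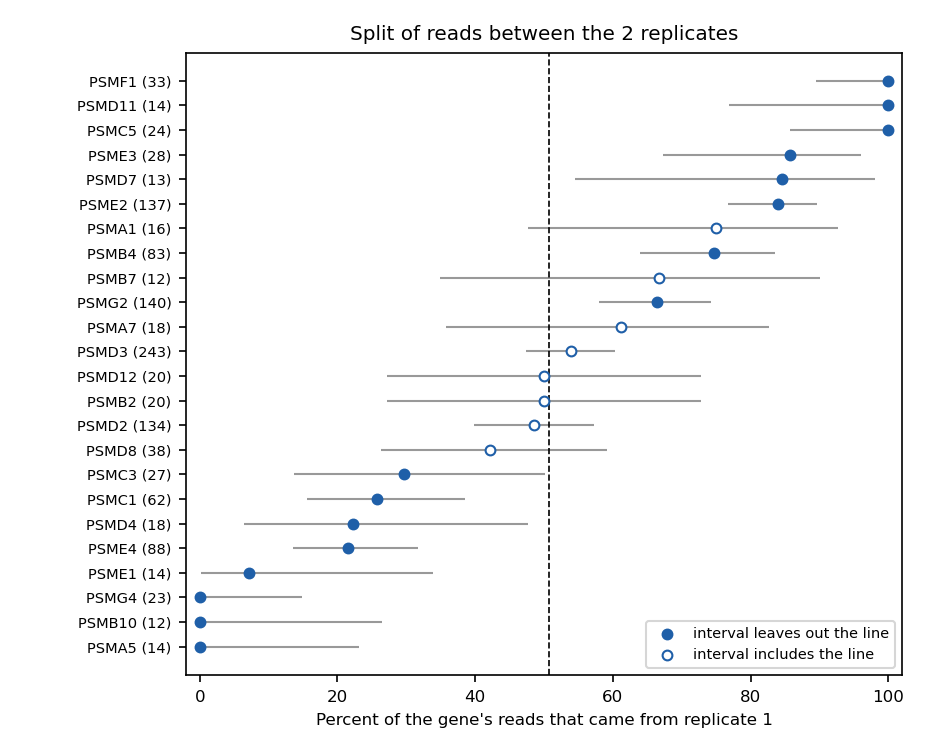
Percent of a gene's reads that came from replicate 1 (horizontal axis) for the 24 proteasome subunit genes with at least 10 reads summed (sum in parentheses). Bars are 95% Clopper-Pearson intervals and the dashed line marks the 50.7% that the library totals give; the bars of 16 genes (filled points) leave out the line, from PSMF1 at the top to PSMA5 at the bottom.

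Many of the genes overlap a neighbour. The libraries were stranded, but the strand setting used for counting is not given in the sources used here, and without it reads of a gene and of one opposite to it cannot be told apart. Exons of 19 of the 48 genes lie opposite exons of another gene, and 7 of these 19 were identified, against 12 of the 29 without such an overlap. For 8 genes the opposite gene itself had at least 10 reads summed. The overlap was widest for PSMC1, of whose exon bases 4667 (76.1%) lie opposite NRDE2, a gene with 40 and 49 reads. PSMC5 shares 655 bases with FTSJ3 (156 and 138 reads). PSMD7 shares 842 with the lncRNA ENSG00000259972 (36 and 37), and PSMD11 shares 557 with the lncRNA ENSG00000279762 (53 and 19).

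The overlaps of the other 4 were smaller or lay opposite genes with fewer reads. PSMG4 shares 1388 bases with SLC22A23 (31 and 15 reads) and 174 with TUBB2B (32 and 0), while its own 23 reads were all in replicate 2. PSME4 shares 156 bases with ACYP2 (110 and 77), PSMG2 65 with SPIRE1 (70 and 58) and PSME2 216 with RNF31 (12 and 3). PSMD3, PSMD2 and PSMB4 have no exon opposite another gene. The 7 antisense or divergent lncRNA genes named after a subunit gene, such as PSMA3-AS1, PSMB8-AS1 and PSMG3-AS1, had no read in either replicate. The part of opposite genes in the counts was not tested. Some genes also share exon bases with a protein-coding gene on their own strand that had no read in either replicate. The widest overlaps were 1445 bases for PSMA2 (ENSG00000256646), 1307 for PSMD9 (ENSG00000256950), 919 for PSMA6 (ENSG00000258790), 814 for PSMA1 (ENSG00000256206) and 640 for PSMB10 (ENSG00000261884). PSMC2, with 6 and 0 reads, shares 112 bases on its own strand with PMPCB, a gene with 78 and 15 reads. How reads that lie in several genes were treated is not given in the sources used here, and their part was not tested.

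The subunit genes also have processed copies. The genome carries 44 pseudogenes named after 17 of the subunit genes, and a read that matches 2 places equally may be set aside. The share of 75-base windows of the coding sequence that occur identically elsewhere in the genome was above 0 for 6 genes. It was 94.6% for PSMC1, 29.9% for PSMC6, 20.3% for PSMA6, 14.0% for PSMD4, 8.86% for PSME2 and 4.98% for PSMD2. Of the 13 genes with no read, 2 (PSMC6 and PSMA6) were among these, and the other 11 had no shared window of this length. Only matches on the main chromosomes were counted, so copies on alternate or unplaced sequences of the assembly are not covered. How reads with several matches were treated is not given in the sources used here, and the part of copies in the counts was not tested.

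**Figure D3:**
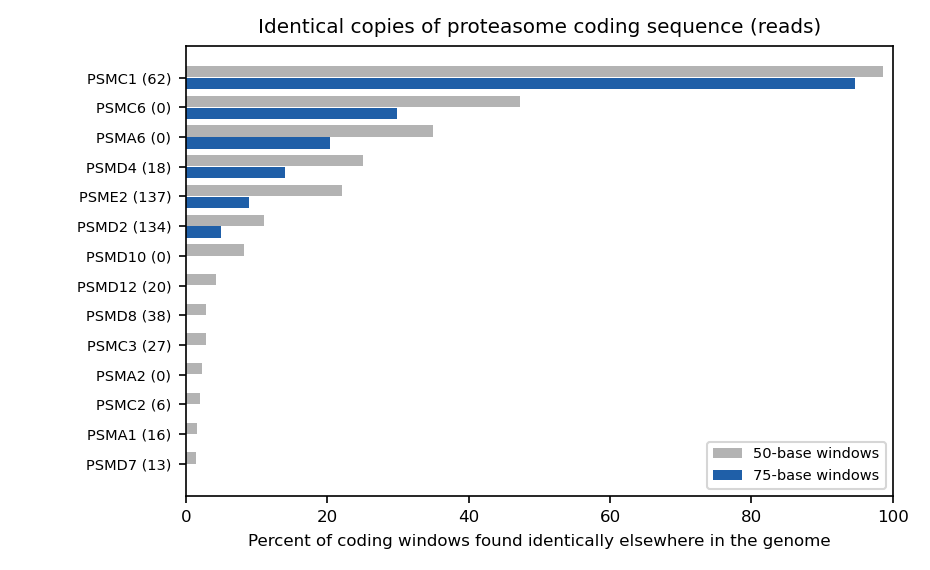
Percent of coding windows found identically elsewhere in the genome (horizontal axis) for the 14 proteasome subunit genes with any shared window of 50 bases (grey) or 75 bases (blue); reads summed over both replicates are in parentheses. PSMC1 stands apart with 94.6% at 75 bases, while most of the genes listed share windows of 50 bases only.

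PSMC1 and its copy PSMC1P1 on chromosome 3 are identical at 1319 of 1320 coding bases. The pseudogene had 20 reads in replicate 1 and 0 in replicate 2, where PSMC1 had 16 and 46, so their sum was 36 and 46. The stretches around the base that tells them apart are shown because a read must cover it to be placed by coding sequence alone, unless it crosses the end of the copied part or keeps an intron. Both are from GRCh38, plus strand, 5′ to 3′, chr14:90268404-90269413 with the intron between 2 coding exons left out and chr3:68636576-68636602, with the differing base in capitals.
PSMC1: ggacaaaaagataTgactccaattctg
PSMC1P1: ggacaaaaagataAgactccaattctg
The substitution is T885A, counted from 1 at the first coding base, with the base of PSMC1 first. It lies in codon 295 of 440 and turns TAT in PSMC1 into the stop codon TAA in the copy. Of the 44 pseudogenes, only PSMC1P1 and PSMD10P1 (0 and 6 reads) had any read.

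Promoters were searched because the subunit genes are known to be raised together. RefSeq promoters on GRCh38.p14, from 250 bases before to 50 after the start of a gene, were matched for 42 of the 48 by symbol. The core of the antioxidant response element, TGACNNNGC on either strand, was present in 15 of the 42 (35.7%), against 16.1% of 27305 genes of the same table. Unlike the family, those genes were not limited to protein-coding ones. Of the 15 genes with the core 6 were identified, and of the 27 without it 10 were. Stretches with the core in capitals are given for the 4 genes with a match among the 5 with the highest mean CPM, each on the strand of its gene, 5′ to 3′, at chr17:39980760-39980788 (plus), chr18:12658689-12658717 (plus), chr14:24146767-24146795 (minus) and chr2:53971009-53971037 (minus).
PSMD3: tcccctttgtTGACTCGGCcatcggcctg
PSMG2: cagtttcccgTGACCCCGCggccgctctg
PSME2: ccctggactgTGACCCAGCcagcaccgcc
PSME4: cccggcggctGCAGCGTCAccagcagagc
In PSME4 the core reads on the opposite strand. Counted from the start of the gene, the first motif base lies at -37, -39, -175 and -34. PSMD3 holds a further match after its start. For PSMG2 and PSME2 the RefSeq start lies inside the GENCODE span given with their reads. The fifth gene, PSMD2, holds no match in this window.

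Other motifs were also common in these promoters. The letters CGGAAG, the core bound by ETS factors, were in 25 of the 42 (59.5%) against 22.6% of all genes of the table. GGGCGG, the GC box bound by SP factors, was in 29 (69.0%) against 48.3%, and CCAAT, bound by NF-Y, in 20 (47.6%) against 39.7%, each on either strand. The share identified was 9 of 25 with CGGAAG and 7 of 17 without it, 11 of 29 with GGGCGG and 5 of 13 without it, and 7 of 20 with CCAAT and 9 of 22 without it. These 4 motifs were kept from a larger set looked at after the counts were known, and a match is a description of letters, not a site.

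Of 25 genes of the pathway that fall outside the symbol rule, 15 were identified. Among genes that encode ubiquitin, UBB had 31 reads in replicate 1 and 48 in replicate 2, and RPS27A had 12 and 23. ADRM1, a ubiquitin receptor of the 19S particle, had 71 and 67, and UCHL5, the deubiquitinase it recruits, 44 and 12. Another proteasome-bound deubiquitinase, USP14, had no read, while its docking subunit PSMD2 was among the genes with the most reads. SEM1, a small subunit of the lid, had 0 and 8 reads and POMP, the maturation factor of the core particle, 11 and 0.

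Upstream of the proteasome, the E1 enzyme UBA1 had 46 and 26 reads. RAD23B, a shuttle factor that carries ubiquitin-tagged proteins to the proteasome, had 51 and 19. NFE2L1 had 12 and 24 reads, while NGLY1, whose product processes NRF1, had none. AKIRIN2, which brings proteasomes into the nucleus, and PAAF1, an assembly chaperone of the base, had none either.

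Other multi-subunit complexes put the family in place. Of the CCT chaperonin, which folds actin and tubulin, 6 of 8 genes were identified. The COP9 signalosome and the initiation factor eIF3, whose subunits share domains with those of the 19S lid, had 5 of 10 and 8 of 13. Of the mitochondrial ribosomal proteins, 22 of 78 (28.2%) were identified. The proteasome, at 19 of 48, lay between these in its share, and the median over its genes was 3.23 CPM per kilobase of exon, against 8.45 for CCT, 4.10 for COP9, 7.51 for eIF3 and 1.23 for the mitochondrial ribosomal proteins. With 1 condition these shares were not tested against each other.

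**Figure D4:**
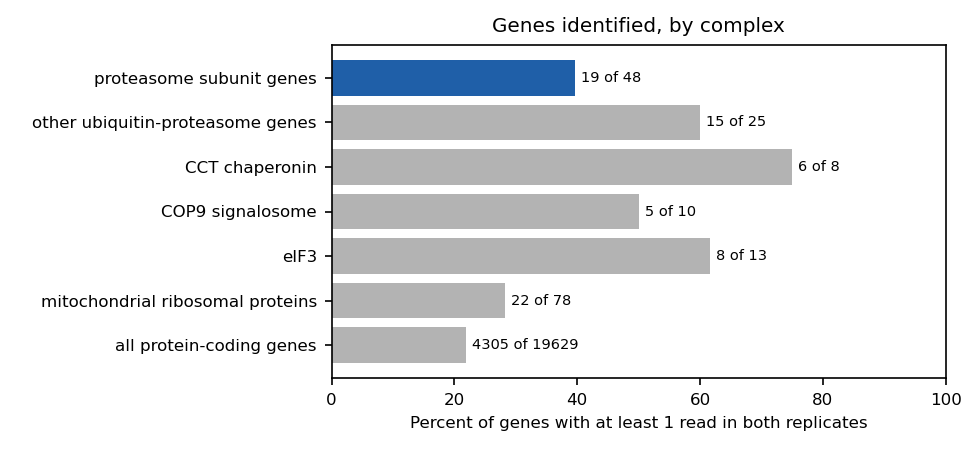
Percent of genes identified, that is read at least once in both replicates (horizontal axis, from 0), for the proteasome subunit genes (blue) and other complexes and lists (grey), with the number of genes beside each bar. The bar of the proteasome, 19 of 48, lies between that of the mitochondrial ribosomal proteins, 22 of 78, and that of the COP9 signalosome, 5 of 10.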

How the data were processed

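Stranded total RNA libraries were made from the EVs of PC3 cells in 2 biological replicates. Per the labels and the methods of the study, the authors trimmed and mapped the reads to GRCh38 and deposited raw counts of reads per Ensembl gene, as HTSeq writes them, without normalisation. Strand setting, annotation release, versions and the handling of reads with several matches or in several genes are not given in the sources used here.

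Of the gene identifiers, 56948 matched GENCODE release 44, from which types, symbols and exons were taken, and 1103 did not match. Rows that name no gene (97.5% and 97.8% of the reads) were left out. CPM were computed from reads counted on genes, with a pseudocount of 1 for log2 values. Shares of reads in a single library by class carry 95% Wilson intervals, and SDs are over 2 replicates. With 1 condition, no test between groups applies and no p-value was computed. Interval calls were tested on simulated data with independent counts. These lack the excess of even numbers, so the simulation does not cover its effect on the calls. Coding sequences were compared with hg38 by BLAST 2.17.0 (word size 28). TMM and median-of-ratios factors came from edgeR 4.0.16 and DESeq2 1.42.0 in R 4.3.3, and intervals from scipy 1.17.1 and tables from pandas 2.3.3 in Python 3.11.15.

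The members and lists were chosen with earlier results of these data known. Values are given for the 10 members with the highest mean CPM, the 5 highest per kilobase, the proteolytic, immune, testis and thymus subunits, activators, inhibitor and chaperones, the 5 most uneven members, members opposite a gene with reads, and, by name, those with no read. PSMB10, tied with the most uneven, and the other members were named after their values were seen. Alternatives were other minimums, scalings, pseudocounts, denominators and rankings, and leaving out each replicate. The small RNA table was not used here, and values of some listed genes that are not members are not reported here.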

Additional observations from a re-analysis of the deposited data

Results flagged for a closer look

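Reads on pseudogenes of the family lie outside the protein-coding genes that the comparisons use. PSMC1P1, the near-identical copy of the ATPase gene PSMC1, had 20 reads in replicate 1 and 0 in replicate 2, and PSMD10P1, a copy of the assembly gene PSMD10, had 0 and 6. Both lie above the 3 reads that a count of 0 allows, in a single replicate each. That floor takes reads as independent and is too low where even counts are in excess, which matters most for the 6 reads of PSMD10P1. PSMD10 itself had no read. Whether these reads came from the pseudogenes or from their parent genes was not tested.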

How the results depend on the processing

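The number of subunit genes identified was 19 of 48 and became 35 (72.9%) with a read in either replicate, against 42.3% of all protein-coding genes. It was 12 with at least 10 CPM in both, 16 with at least 3 reads in both and 26 to 28 with a single replicate. Among the 29 genes with no exon opposite another gene, 12 were identified. Genes with at least 10 reads numbered 16 to 17 with a single replicate, against 10 in both. For the rules on 3 reads, 10 CPM and single replicates, no share over all protein-coding genes was set beside the counts. They therefore do not show whether the family moves differently from genes in general. The share of the family was 0.361% without mitochondrial genes and RPS29 and 0.134% of the reads on all genes. The median of log2(CPM + 1) became 1.89 with a pseudocount of 0.5, 4.44 over genes read in both replicates and 3.20 to 3.23 with a single replicate. Ranking by CPM per kilobase of canonical transcript, chosen after seeing the data, put 12 genes in the top 10% in place of 7. The mean 19S share was 36.7% without PSMD3, below the 44.8% of activators, inhibitor and chaperones. In replicate 2 alone it stayed above theirs, 41.9% against 39.6%. With at least 20 reads summed, the replicates of 10 of 15 genes differed, against 62.4% of protein-coding genes. TMM and DESeq2 scaling left 16 genes that differ and a median of 2.40. No paired analysis was possible because all libraries belong to 1 group. Depth limits the result for the 13 genes with no read. Of the 16 read in 1 replicate only, those with fewer than 10 reads were below the minimum for the interval calls. That minimum is why they were not called in some cases: the intervals of PSMG1 (63.1 to 100%) and PSMA3 (0 to 36.9%) also left out 50.7%. The others of the 16, PSMF1, PSMC5, PSMD11, PSMG4, PSMA5 and PSMB10, differed between the replicates beyond counting error, by intervals that are too narrow. Some of the 13, such as PSMA2, PSMA6 and PSMC6, also share exon bases or coding windows with other genes or places. Having 2 replicates limits every SD.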
